A study of Mus musculus with 22 samples.

Results

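This account covers 319 genes of natural killer (NK) cells, compared between NK cells cultured with Panc02 tumour cells and NK cells cultured alone. The genes were chosen by their measured levels: a gene was taken if it lay on an autosome, averaged 20 or more CPM (counts per 1000000 counts of a library) over the 4 NK monocultures, and stood there at 2000 or more times its mean in 2 libraries of Panc02 cultured alone. Of 78298 genes counted, 72909 were autosomal, 7405 of those reached the level, and 319 passed both thresholds. Of these, 232 had 0 counts in both Panc02 libraries and 87 had a few, and 310 had a gene symbol. The rule used monoculture and Panc02 levels, so a high level in monoculture is not a result, whereas the co-culture libraries took no part in the choice. Just inside the level threshold were Zfp709 at 20.4 CPM and the genes ENSMUSG00000129451 and Trdv2-2 at 20.5 CPM, and just outside were Plxnc1 at 19.9, Ctss at 19.8 and BC035044 at 18.8 CPM. By the ratio, Zfp945 at 2011, Pde3b at 2028 and Dusp22 at 2125 were just inside, and Tap2 at 1995, Irgm2 at 1991 and Gm33104 at 1968 just outside.

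The series asks whether sex shapes how NK cells act against pancreatic cancer, and Panc02 is a mouse pancreatic tumour line. NK cells came from spleens of female and male mouse donors, and their polyadenylated RNA was sequenced. Monocultures were labelled as NK cells given interleukin-2 (IL-2) for 24 h, co-cultures as NK cells with Panc02 under the same 24 h of IL-2, each with 2 libraries from female donors (samples 1 and 2) and 2 from male donors (samples 4 and 5). Fresh NK cells, 2 libraries per sex with no treatment, are given for reference only and were not tested. The labels give no strain, age or number of animals per sample and do not say that samples come from separate animals, so a p-value here measures spread among samples, which may in part be technical. They also do not say that the cell types were separated after co-culture.

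NK cells are innate lymphocytes that kill tumour and infected cells without earlier priming. A balance of activating and inhibitory surface receptors decides whether a cell fires. A cell that does releases granules with perforin and granzymes, shows death ligands, and secretes interferon-gamma and chemokines. IL-2 and related cytokines, read through a shared receptor beta chain, sustain NK cells and raise their content of killing proteins.

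Libraries held 14624113 to 46170885 counts in monoculture and 34357879 to 46799030 in co-culture. The 319 genes took 7.16% to 7.65% of counts in monoculture but 0.251%, 0.293%, 0.175% and 0.151% in co-culture (female 1, female 2, male 4, male 5, the order used for all sets of 4 values). That left 112703, 137081, 60094 and 69007 counts on the members, a median of 77 to 161 counts per gene. The share of NK RNA in a co-culture, taken as the members' share divided by that in monoculture of the same sex, was 3.74% ± 0.41 (SD, n = 2) for female donors. For male donors it was 2.16% ± 0.22 (SD, n = 2), lower by a factor of 1.73. An exact permutation test, two-sided, gave p = 0.33, below which 2 libraries against 2 cannot go. Because the share is a part of a library that holds mostly Panc02 RNA, several sources cannot be told apart here. They are fewer NK cells, less RNA per NK cell, more Panc02 cells and more RNA per Panc02 cell. All levels below are therefore NK-scaled CPM, CPM scaled to the 319 genes' own total in that library, and a gene is high or low relative to the other members. On this scale 3 counts equal 21.9 to 49.9 NK-scaled CPM in a co-culture and at most 2.87 in a monoculture, so low values in co-culture rest on few reads. Mates of a read pair were counted one by one, so counts overstate the number of fragments. Neutrophil genes were highest in both libraries of male sample 5, and their values stand below with the markers of other cells.

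Within these NK genes a group that included effector genes was higher in co-culture. Scaled to the members' own total, a larger group that included receptors, adaptors and regulators was lower. By edgeR's quasi-likelihood test with Benjamini-Hochberg adjustment over all 319 genes, 59 genes (18.5%) rose and 122 (38.2%) fell at an adjusted p under 0.05, while 138 were not called. The 2 directions together made 56.7% of all members, and these shares are the background for each list below. The median log2 fold change was -0.24, with quartiles of -0.53 and 0.11, and 13 of the genes that rose and 24 of those that fell changed by more than 1. All 4 co-culture values lay above all 4 monoculture values for 49 genes (15.4%) and below them for 116 (36.4%). The number that fell depends on the scale: with edgeR's TMM factors, which move the median gene up by 0.24, 77 rose and 70 fell, and with median-ratio size factors 77 rose and 74 fell. It also depends on the rule: with a ratio to Panc02 of 500 or more in place of 2000, called a ratio minimum of 500 below, 402 genes were chosen, of which 63 rose and 195 fell. Choosing genes on monoculture can favour those that are high there. With the same thresholds applied to fresh NK cells instead, 384 genes were chosen, 280 of them shared, and 74 rose and 119 fell. The scaling to the members' own total is called the main scaling below. Under all 3 scalings 59 of the 319 genes were called higher and 70 lower, and each call named below holds under all 3 unless its sentence says otherwise.

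**Figure D1:**
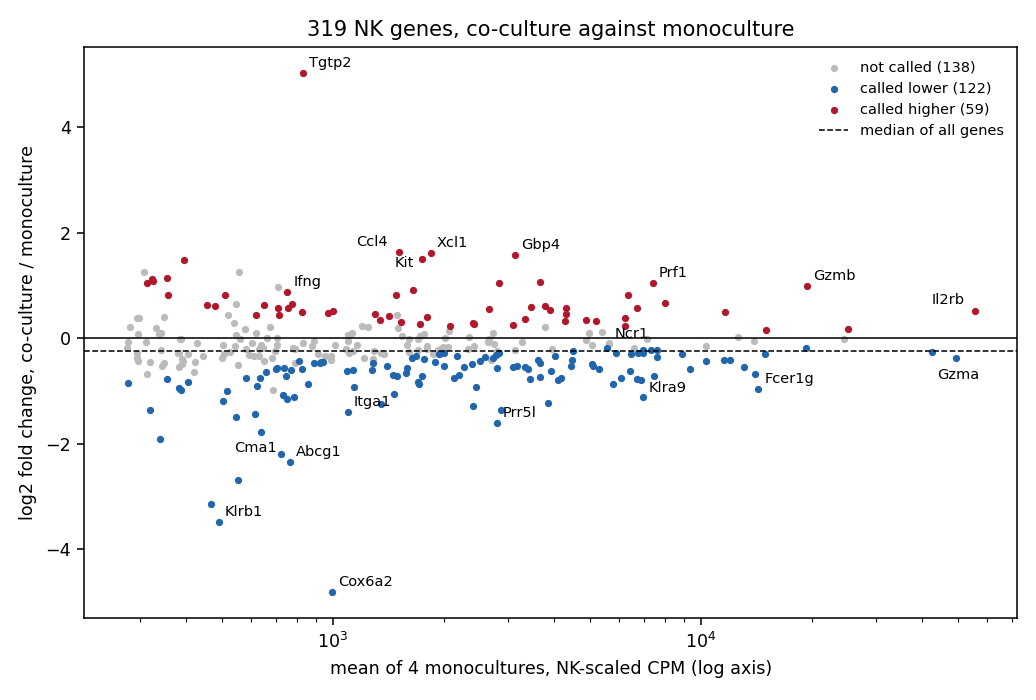
Each point is 1 of the 319 NK genes, with its mean level in 4 monocultures (NK-scaled CPM, log axis) against its log2 fold change in co-culture. Red points were called higher (59), blue lower (122) and grey not called (138), and the dashed line marks the median of -0.24; Tgtp2 lies far above and Cox6a2 and Klrb1 far below the rest.

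Secreted signals were among the genes that rose most. Of 25 listed cytokines and chemokines 6 were members, of which 4 rose, 1 fell and 1 was not called, with a median log2 fold change of 0.73. Xcl1 (ENSMUSG00000026573, chromosome 1, 164759213 to 164763096, build GRCm39), a chemokine that attracts cross-presenting dendritic cells, stood at 1772, 1437, 2026 and 2154 in monoculture and at 6202, 4961, 6174 and 4999 in co-culture. Its groups did not overlap, and means of 1847 ± 316 and 5584 ± 698 (SD, n = 4 each) gave a log2 fold change of 1.61 ± 0.10 (± SE here and for all fold changes; adjusted p = 2.29e-08). Ccl4 (ENSMUSG00000018930, chromosome 11, 83553410 to 83555509), a chemokine that attracts monocytes and other leukocytes, was at 1159, 1344, 1841 and 1700 in monoculture and at 4596, 4311, 4976 and 4565 in co-culture. Every co-culture was more than 2 times as high as any monoculture, and the log2 fold change was 1.63 ± 0.09 (adjusted p = 1.63e-09). Fresh cells were lower than both, at a mean of 750.0 ± 63.8 for Xcl1 and 485 ± 146 for Ccl4. Ccl3, a related chemokine, stood at 2463, 3039, 4349 and 3933 in monoculture and at 4853, 4640, 5441 and 5362 in co-culture. The gap was narrower, since male monocultures already reached 4349 and 3933, and the log2 fold change was 0.58 ± 0.08 (adjusted p = 1.86e-05). Ifng (ENSMUSG00000055170, chromosome 10, 118276951 to 118281797), which encodes interferon-gamma, was at 638, 749.7, 841 and 779 in monoculture and at 1597, 1379, 1365 and 1203 in co-culture. Its log2 fold change was 0.88 ± 0.14 (adjusted p = 6.74e-05), with 338, 387, 421 and 298 in fresh cells. Il16, a chemoattractant for CD4+ cells, fell instead, from 3914 ± 118 to 2544 ± 245 (log2 fold change -0.62 ± 0.09, adjusted p = 1.7e-05). Osm, a cytokine of the IL-6 family, was not called at -0.14 ± 0.16 (adjusted p = 0.468).

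Xcl1, Ccl4, Ccl3 and Ifng also made up 4 of the 5 members among 46 listed early activation and NF-kB target genes, and the fifth went the other way. Cd69 (ENSMUSG00000030156, chromosome 6, 129244288 to 129252399), a C-type lectin shown on the surface soon after activation that keeps lymphocytes in tissue, stood at 1698, 1501, 2100 and 1551 in monoculture and at 887, 1291, 1098 and 507 in co-culture. The groups did not overlap, and the log2 fold change was -0.87 ± 0.23 (adjusted p = 0.00968). Fresh cells held only 242, 191, 255 and 306, so that Cd69 in co-culture lay between fresh cells and monoculture.

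**Figure D2:**
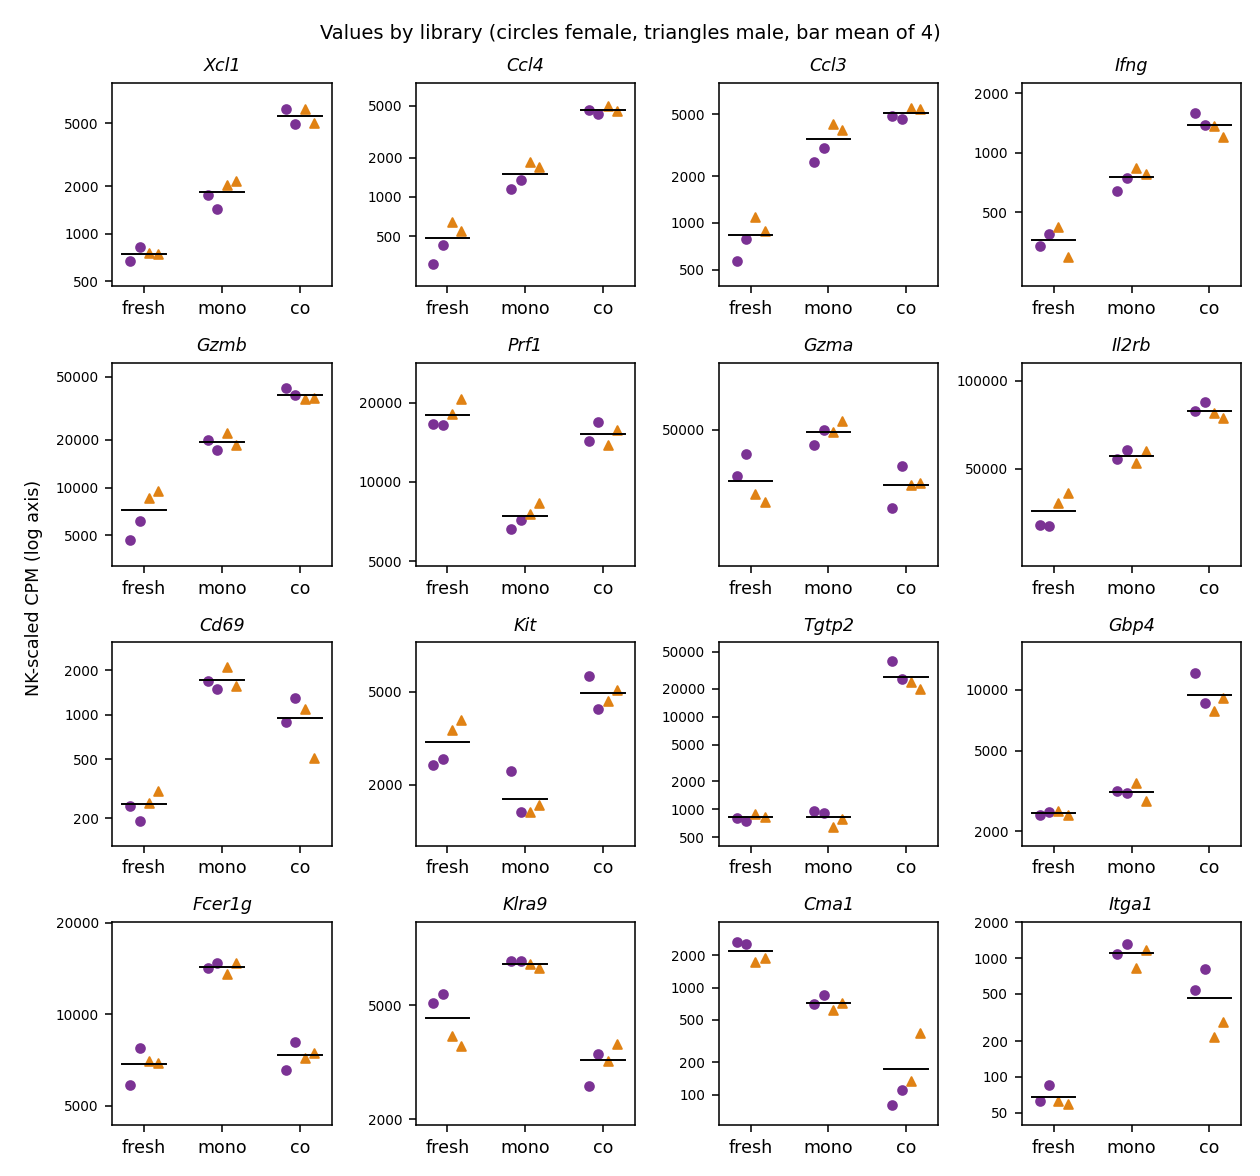
NK-scaled CPM (log axes) of 16 genes in each fresh, monocultured (mono) and co-cultured (co) NK library, with circles for female and triangles for male donors and a bar at the mean of 4. For all 16 the co-culture values do not overlap those of monoculture, as for Xcl1 and Gzmb above and Fcer1g and Klra9 below.

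Killing genes did not all move one way. Of 10 listed granule proteases and perforin 3 were members: Gzmb and Prf1 rose and Gzma fell. Gzmb (ENSMUSG00000015437, chromosome 14, 56496295 to 56499717), granzyme B, which triggers apoptosis in the target, stood at 19969, 17244, 22070 and 18648 in monoculture and at 42315, 38547, 36460 and 36880 in co-culture. The 4 co-cultures lay within a narrow band above all monocultures (log2 fold change 0.98 ± 0.07, adjusted p = 2.29e-08). Prf1 (ENSMUSG00000037202, chromosome 10, 61133612 to 61140459), perforin, which opens the target membrane to granzymes, was at 6598, 7147, 7535 and 8307 in monoculture and at 14285, 16910, 13828 and 15824 in co-culture. It too was separated without overlap (log2 fold change 1.04 ± 0.07, adjusted p = 2.29e-08), and in co-culture it was near the 17941 ± 1954 of fresh cells. Gzma, granzyme A, was the second highest member by reads in monoculture and the highest per exon length. It fell from 49463 ± 2397 to 38217 ± 3180 (log2 fold change -0.37 ± 0.06, adjusted p = 0.000183). Among 4 members of 16 listed granule accessory genes, none rose and 2 fell. Ctsw, the cathepsin of cytotoxic lymphocytes, fell (log2 fold change -0.41 ± 0.06, adjusted p = 4.6e-05), and Srgn, the granule proteoglycan serglycin, fell by 0.28 on the log2 scale without being called under the other scalings. Nkg7, a granule membrane protein needed for release, was at 10520, 9778, 10319 and 10683 in monoculture and at 8287, 9607, 10051 and 9506 in co-culture and was not called (log2 fold change -0.14 ± 0.07, adjusted p = 0.0783). It was called lower with the sample numbers as a block (-0.14, adjusted p = 0.0389) and without the co-culture of female 2 (-0.20, adjusted p = 0.0196), as well as with a ratio minimum of 500 (-0.24, adjusted p = 0.0139) or genes chosen in fresh cells (-0.18, adjusted p = 0.039), and turned positive under the other scalings (0.10 and 0.072). Cst7, an inhibitor of cathepsins, was not called (-0.16 ± 0.11, adjusted p = 0.21).

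The death ligands parted as well. Fasl, which kills through the receptor Fas, stood at 2280, 2484, 2528 and 2346 in monoculture and at 2830, 3137, 3045 and 2753 in co-culture. Its rise was small (log2 fold change 0.29 ± 0.09, adjusted p = 0.014) and was lost without the monoculture of female 1 (adjusted p = 0.0685) or of male 5 (adjusted p = 0.058). It was also lost with a ratio minimum of 500 (0.19, adjusted p = 0.0924), in the fit of the whole table (adjusted p = 0.0522) and without both libraries of male sample 5 (adjusted p = 0.0554). Tnfsf10 (ENSMUSG00000039304, chromosome 3, 27371177 to 27396576), the ligand TRAIL, was at 1134, 1324, 952 and 1164 in monoculture and at 506, 613, 666 and 609 in co-culture. It fell without overlap (log2 fold change -0.93 ± 0.16, adjusted p = 0.00011), yet remained above the 215 ± 33.1 of fresh cells. Ltb, lymphotoxin beta, fell by 0.62 on the log2 scale but not under the other scalings, and Cd27 was not called (-0.12 ± 0.15, adjusted p = 0.491).

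Receptors for cytokines split evenly, with 2 of 4 members of 26 listed genes higher and 2 lower. Il2rb (ENSMUSG00000068227, chromosome 15, 78363456 to 78379471), the beta chain through which IL-2 and IL-15 signal, was the highest member of all in monoculture. It stood at 53894, 58082, 52504 and 57602 in monoculture and at 78951, 84417, 77429 and 74587 in co-culture, with no overlap (log2 fold change 0.51 ± 0.05, adjusted p = 1.31e-06). Fresh cells held 35864 ± 4668. Il12rb2, the signalling chain of the IL-12 receptor, stood at 3869, 3506, 3968 and 3773 in monoculture and at 5971, 5727, 5325 and 6159 in co-culture and rose (log2 fold change 0.62 ± 0.07, adjusted p = 4.21e-06). Stat4, the transcription factor that this receptor activates, also rose (log2 fold change 0.46 ± 0.11, adjusted p = 0.00254). Il18r1, the ligand-binding chain of the IL-18 receptor, moved the other way, from 7236, 7986, 7152 and 7456 in monoculture to 5004, 4246, 4177 and 4637 in co-culture (log2 fold change -0.72 ± 0.08, adjusted p = 1.21e-06). Il10ra, a chain of the IL-10 receptor, also fell (log2 fold change -0.46 ± 0.08, adjusted p = 0.000225). Il1rap, the accessory chain shared by receptors of IL-1 and IL-33, was outside that list and among the 10 largest falls (log2 fold change -1.91 ± 0.29, adjusted p = 3.56e-05). Of 22 listed IL-2 and STAT5 target genes 4 were members: Il2rb, Gzmb and Prf1 rose and Osm was not called.

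Of 19 members among 27 listed activating receptors and adaptors 1 rose, 9 fell and 9 were not called. The median was -0.30, against -0.24 for all members, of which 18.5% rose and 38.2% fell. With TMM factors 8 of the 19 lay above 0. Under all 3 scalings 4 were called lower, against 70 of all 319 members. Fcer1g (ENSMUSG00000058715, chromosome 1, 171057141 to 171061934), the adaptor chain that couples CD16 and NKp46 to kinases, had the smallest adjusted p among the activating genes that fell. It stood at 14220, 14783, 13593 and 14756 in monoculture and at 6548, 8112, 7172 and 7463 in co-culture, so each co-culture held at most 8112 against at least 13593 (log2 fold change -0.97 ± 0.07, adjusted p = 2.29e-08). Fresh cells, at 5859, 7708, 7036 and 6905, overlapped co-culture in level. Tyrobp, the adaptor DAP12 used by other activating receptors, was not called (-0.10 ± 0.07, adjusted p = 0.238). Klrb1c, the receptor NK1.1, fell from 13102 ± 409 to 9040 ± 1044 (log2 fold change -0.54 ± 0.07, adjusted p = 4.29e-06). Klrc2, the activating receptor NKG2C, fell as well (log2 fold change -0.77 ± 0.09, adjusted p = 3.13e-06), and so did Cd244a, the receptor 2B4 (log2 fold change -0.58 ± 0.10, adjusted p = 9.42e-05). Klrk1, which encodes NKG2D, fell by 0.30 on the log2 scale (adjusted p = 0.000684), a call not held under the other scalings.

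Ncr1, the receptor NKp46 that defines NK cells, was at 5485, 5609, 5974 and 5474 in monoculture and at 5581, 4530, 5109 and 5637 in co-culture. The groups overlapped and it was not called (log2 fold change -0.11 ± 0.08, adjusted p = 0.23), except without the co-culture of female 1 (-0.19, adjusted p = 0.0467) and with a ratio minimum of 500 in the rule (-0.22, adjusted p = 0.0212), and its sign turned under the other scalings (0.13 and 0.10). Cd226, the receptor DNAM-1, was at 436, 325, 334 and 280.4 in monoculture and at 399, 241, 99.8 and 246 in co-culture. It was not called (log2 fold change -0.53 ± 0.28, adjusted p = 0.117) but was called lower without the co-culture of female 1 (-0.73, adjusted p = 0.0274) or of male 5 (-0.94, adjusted p = 0.0269), or both libraries of male sample 5 (adjusted p = 0.0459). Slamf7, a self-ligand receptor that can activate NK cells, was the member that rose, from 724, 514, 726 and 635 to 887, 941, 1015 and 1203 (log2 fold change 0.64 ± 0.17, adjusted p = 0.00453).

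No inhibitory receptor was called higher under any of the 3 scalings, though Klre1 lay above 0 with TMM factors (0.043). Of 12 members among 34 listed genes none rose, 11 fell and Klre1 alone was not called (-0.19 ± 0.09, adjusted p = 0.0777), with a median log2 fold change of -0.58. Under all 3 scalings 7 were called lower. Of all members 38.2% fell, and 70 of 319 were lower under all 3 scalings. The list includes Cd244a and Klri2, which can also activate. Klrc1, the receptor NKG2A, which pairs with CD94 to sense non-classical MHC, stood at 4331, 3933, 4345 and 4038 in monoculture and at 2476, 2393, 2812 and 2174 in co-culture (log2 fold change -0.76 ± 0.09, adjusted p = 4.29e-06). Cd96, a competitor of Cd226 for the ligand CD155, stood at 2495, 2188, 2209 and 2184 in monoculture and at 1917, 1948, 1414 and 1101 in co-culture (log2 fold change -0.54 ± 0.11, adjusted p = 0.000403). Klri2, a lectin of the same locus that pairs with Klre1, fell (log2 fold change -0.58 ± 0.07, adjusted p = 3.43e-06), whereas Klrd1, the partner CD94, fell by 0.29 on the log2 scale only under the main scaling.

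The Ly49 receptors, lectins that read classical MHC class I in mice, all fell: 6 of 6 members of 13 listed (median -0.71), 3 of them under all scalings. All but Klra8 are also counted among the inhibitory receptors above, and Klra8 among the activating receptors. Among all members the share that fell was 38.2%. Klra9 (ENSMUSG00000033024, chromosome 6, 130155638 to 130170075) stood at 7131, 7102, 6940 and 6726 in monoculture and at 2600, 3370, 3195 and 3652 in co-culture. Every co-culture held at most 3652 where no monoculture was under 6726 (log2 fold change -1.12 ± 0.09, adjusted p = 2.62e-08). Klra7 fell by 0.77 and Klra3 by 0.65 on the log2 scale, both without overlap (adjusted p = 1.53e-06 and 0.000729). Klra8, the activating receptor Ly49H, changed least. It fell by 0.22 with overlapping groups, was lost without the monoculture or the co-culture of male 4 (adjusted p up to 0.078), and turned to 0.022 with TMM factors. These genes are near-identical in stretches and reads that map to several places were counted, so values of single members are uncertain.

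Many of these genes lie together on chromosome 6, which carried 48 of the 319 members. Between 128586190 and 130363837, the NK gene complex, 22 members spanned from Klrb1a to Klra1, and this interval was chosen after the values were seen. Its counts overlap those of the receptor lists above. Under the main scaling none rose, 17 fell and 5 were not called, with a median of -0.56 and no fold change above 0. Under all 3 scalings 11 fell, and with TMM factors 4 members lay above 0, none of them called. The share of all members that fell was 38.2% under the main scaling. The lowest was Klrb1 at -3.48 ± 0.39. Clec2i, a lectin-like ligand encoded between the receptors, fell by 1.28. A second interval of the chromosome, from 48624168 to 48747785, holds the GIMAP genes, GTPases of immunity-associated proteins that support lymphocyte survival. Of its 9 members 6 rose, 2 were not called, and 4833403J16Rik fell (-0.58 ± 0.19) under the main scaling only, with a median of 0.41. Gimap4 stood at 8363, 7243, 8651 and 7797 in monoculture and at 12511, 12547, 13379 and 12231 in co-culture. Its groups were apart (log2 fold change 0.66 ± 0.07, adjusted p = 9.43e-07), and fresh cells were at 12672 ± 1650. Gimap3 stood at 6925, 6599, 7091 and 6213 in monoculture and at 10914, 9921, 9102 and 9724 in co-culture (log2 fold change 0.56 ± 0.07, adjusted p = 4.29e-06). Gimap6 rose by 0.35 and Gimap5 by 0.41 (adjusted p = 0.00187 and 0.00686). Gimap1os, a transcript antisense to Gimap1, rose by 1.12 ± 0.20, while Gimap1 itself was not called (0.05 ± 0.11). As listed, 5 of 7 GIMAP members rose and none fell, where 18.5% of all members rose.

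**Figure D3:**
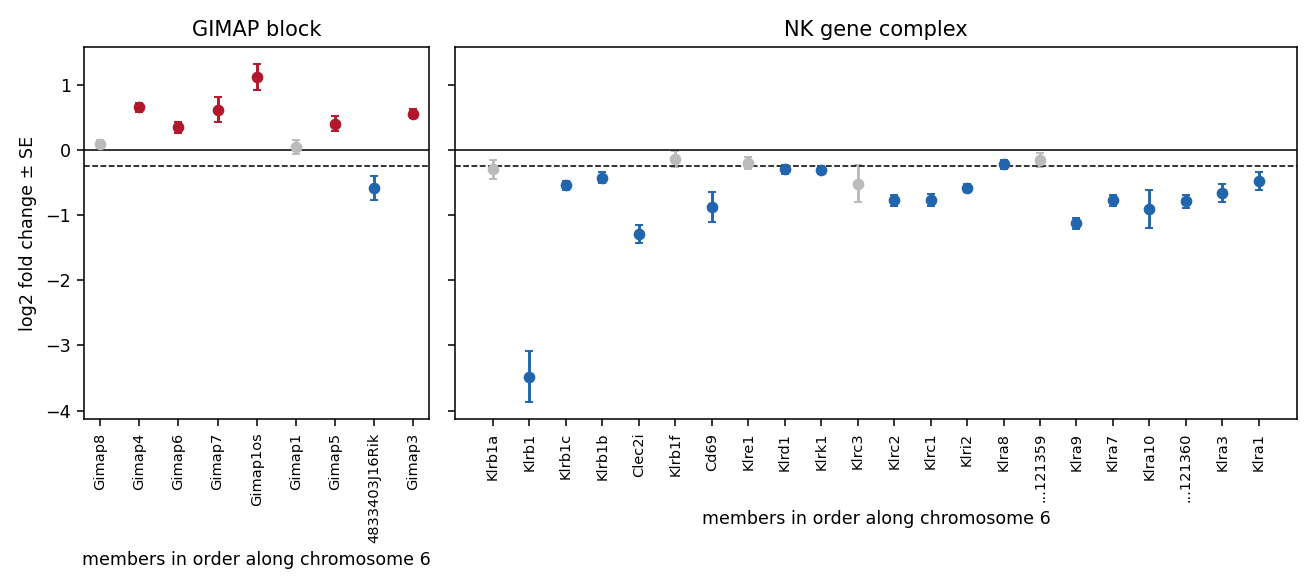
Log2 fold change in co-culture ± SE of the members of 2 intervals of chromosome 6, in order along the chromosome, with red for called higher, blue for called lower and grey for not called; the dashed line is the median of all 319 members. Of 9 GIMAP block members 8 lie above 0, and all 22 NK gene complex members lie below 0 under the main scaling; 4 of them lie above 0 with TMM factors.

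Interferon-inducible genes held the largest rise. Of 13 members among 86 listed genes 6 rose, 3 fell and 4 were not called (median 0.10). All members had a median of -0.24, with 18.5% higher and 38.2% lower. Tgtp2 (ENSMUSG00000078921, chromosome 11, 48948021 to 48955033), a GTPase induced by interferon-gamma in many cell types, stood at 960.1, 915, 648 and 789 in monoculture and at 39635, 25328, 23530 and 19853 in co-culture. Its log2 fold change of 5.02 ± 0.19 (adjusted p = 7.64e-06) was the largest of all members. Gbp4, a guanylate-binding protein, stood at 3147, 3103, 3460 and 2815 in monoculture and at 12147, 8586, 7804 and 9115 in co-culture (log2 fold change 1.58 ± 0.12, adjusted p = 4.67e-06). Ifi47, another interferon-inducible GTPase, stood at 2846, 2828, 2772 and 2843 in monoculture and at 7852, 5384, 5857 and 4478 in co-culture (log2 fold change 1.05 ± 0.12, adjusted p = 6.74e-05). Gbp5 rose less, from 687, 875, 721 and 810.5 to 1331, 1357, 1281 and 898 (log2 fold change 0.64 ± 0.16, adjusted p = 0.00253). Tap1, the peptide transporter of antigen presentation, rose by 0.36, Serpina3g by 0.27 and Psmb8, a subunit of the immunoproteasome, by 0.26. Ifi208 fell (log2 fold change -0.72 ± 0.18, adjusted p = 0.0028), and Ifi206 and Apol7b fell by 0.43 and 0.46 under the main scaling only. The call of Ifi206 was lost in 6 of the 8 fits that left out 1 library (adjusted p up to 0.128), and its fold change was -0.99 in female and 0.13 in male cells. That of Apol7b was lost in 2 of the 8 (adjusted p up to 0.0885).

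For these genes the cell of origin cannot be told apart. Counted against the whole library, Tgtp2 was at 99.6, 74.2, 41.2 and 30.0 CPM in co-culture against a mean of 61.2 ± 8.94 (SD, n = 4) in monoculture. Its mean was thus 100.1% of the monoculture mean, where Il2rb was at 4.22%, Gzmb at 5.86% and Xcl1 at 8.84%. Gbp4 was at 8.95%, Ifi47 at 6.28% and Gbp5 at 4.76%. Interferon-inducible genes outside the 319 went further: Iigp1, with 0 counts in Panc02 alone, averaged 44.5 CPM in co-culture against 1.96 in monoculture. Gbp2 averaged 86.7 against 57.5 CPM, with 0.114 in Panc02 alone. Panc02 cultured alone does not show what Panc02 expresses beside NK cells. Tgtp2 also shares reads with its near-identical copy Tgtp1, a gene at 58.8 CPM in co-culture. Scaled without the interferon-inducible members, 60 genes rose and 108 fell, an alternative chosen after the data were seen.

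The promoters of 4 genes that rose are shown because they hold the letters of a gamma-activated site, TTCNNNGAA, the palindrome bound by dimers of STAT factors. The sequences are from RefSeq on build GRCm38.p6, not the files' build, and give the 250 bases before the transcription start, 5′ to 3′: Tgtp2 at chr11:49064213-49064462 on the minus strand, Gbp5 at chr3:142496684-142496933 on the plus strand, Ifng at chr10:118440796-118441045 on the plus strand and Il12rb2 at chr6:67376189-67376438 on the minus strand. Capitals mark that site and the core of the interferon-stimulated response element, GAAA followed after 2 bases by GAAA, on either strand.
Tgtp2: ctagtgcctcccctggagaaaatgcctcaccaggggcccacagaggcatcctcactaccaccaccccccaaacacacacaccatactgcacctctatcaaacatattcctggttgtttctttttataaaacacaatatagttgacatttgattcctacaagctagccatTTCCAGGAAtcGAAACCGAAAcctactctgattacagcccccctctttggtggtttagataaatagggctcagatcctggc
Gbp5: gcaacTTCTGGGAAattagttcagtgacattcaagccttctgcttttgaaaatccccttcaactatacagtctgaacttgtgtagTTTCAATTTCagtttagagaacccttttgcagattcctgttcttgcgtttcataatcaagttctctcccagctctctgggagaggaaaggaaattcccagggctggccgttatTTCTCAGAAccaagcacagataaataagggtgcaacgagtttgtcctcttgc
Ifng: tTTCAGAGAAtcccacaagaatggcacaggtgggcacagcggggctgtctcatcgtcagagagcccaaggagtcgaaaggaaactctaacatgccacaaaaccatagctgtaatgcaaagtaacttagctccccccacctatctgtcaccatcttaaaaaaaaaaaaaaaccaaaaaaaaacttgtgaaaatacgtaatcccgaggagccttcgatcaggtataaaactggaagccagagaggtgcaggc
Il12rb2: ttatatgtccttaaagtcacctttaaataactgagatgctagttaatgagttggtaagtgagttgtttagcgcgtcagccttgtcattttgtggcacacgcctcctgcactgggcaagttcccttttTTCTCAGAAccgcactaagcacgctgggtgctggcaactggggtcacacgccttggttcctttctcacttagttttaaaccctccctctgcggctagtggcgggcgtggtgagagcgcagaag
Tgtp2 has both, the gamma-activated site at -81 to -73 from the start and the response element at -70 to -61. Gbp5 has a gamma-activated site at -245 to -237 and another at -52 to -44, with a response element at -165 to -156. Ifng and Il12rb2 have a gamma-activated site only, at -249 to -241 and at -123 to -115. Promoters were matched for 230 of 319 members. The letters TTCNNNGAA occurred in 10 of 42 promoters of genes that rose (23.8%), 8 of 89 of genes that fell (8.99%), 13.5% of all matched members and 8.13% of 27025 promoters. Those that rose with the site were Tgtp2, Ifng, Gbp5, Il12rb2, Nrros, Gimap6, Ctla2a, Serpina3g, Psmb8 and Fgl2. The response element core occurred in 7.14%, 10.1%, 7.39% and 3.46% of the same sets. A form of the NF-kB site, GGG followed after 2 bases by TTTCC, occurred in 4.76%, 2.25%, 3.91% and 1.65%, and AGGTGTGA, a T-box site, in 0%, 2.25%, 1.74% and 1.3%. No test was made of these shares, and a match of letters does not show that a factor binds.

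Signalling genes just below the receptors held 3 that rose, 7 that fell and 6 not called of 16 members among 47 listed, shares near those of all members (18.5% and 38.2%), with a median of -0.24 against -0.24. Under all 3 scalings 5 were called lower. Sh2d2a, a T cell-specific adaptor, rose from 6111, 6568, 6390 and 6352 to 12333, 11468, 10134 and 10897 (log2 fold change 0.82 ± 0.06, adjusted p = 2.79e-08). Pik3r5, a regulatory subunit of PI3-kinase gamma, rose by 0.33, whereas Pik3cg, its catalytic subunit, fell (log2 fold change -0.57 ± 0.11, adjusted p = 0.000291). Prkcb, protein kinase C beta, fell to 1544, 1036, 1414 and 1159 from 2661, 2651, 2187 and 2314 (log2 fold change -0.93 ± 0.12, adjusted p = 1.7e-05). Prkcq, protein kinase C theta, fell by 0.55, Sla, an adaptor that dampens receptor signals, by 0.71 and Skap1 by 0.55 on the log2 scale. Ptprc, the phosphatase CD45, fell by 0.27 under the main scaling only.

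Transcription factors were also divided, 4 higher, 6 lower (5 under all 3 scalings) and 3 not called of 13 members among 51 listed. Of all members 18.5% rose and 38.2% fell. Tbx21, T-bet, a factor that NK maturation requires, stood at 2123, 1903, 1904 and 2157 in monoculture and at 2094, 1897, 1664 and 2478 in co-culture, with overlapping groups, and was not called (log2 fold change 0.01 ± 0.12, adjusted p = 0.947). Its sign changed with the processing. Rora, a nuclear receptor of innate lymphoid cells, fell from 867, 811, 721 and 606 to 346, 277, 366 and 362 (log2 fold change -1.15 ± 0.19, adjusted p = 8.3e-05). Tox, required early in NK development, fell (log2 fold change -1.50 ± 0.25, adjusted p = 0.000104), as did Ikzf3, the zinc finger factor Aiolos (log2 fold change -0.88 ± 0.07, adjusted p = 6.52e-08). Sp140 fell by 1.00 and Sp100, a nuclear body protein, by 0.62 on the log2 scale. Satb1, a chromatin organizer, rose (log2 fold change 0.45 ± 0.07, adjusted p = 5.45e-05), and Hopx, a small homeodomain protein, rose from 312 ± 67.1 to 650.3 ± 227 (log2 fold change 1.04 ± 0.24, adjusted p = 0.00151). Of 24 members among 48 listed regulators of actin and small GTPases none rose, 11 fell and 13 were not called under the main scaling. Under all 3 scalings 4 were lower, and 3 were higher under each of the other 2. Among all members 38.2% fell under the main scaling. Arhgdib, an inhibitor of GDP release from small GTPases, had the smallest adjusted p among the falls (log2 fold change -0.67 ± 0.06, adjusted p = 1.45e-07), with Apbb1ip, Arhgap9 and Dock2 at -0.73, -0.53 and -0.43.

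Genes of maturation, homing and adhesion numbered 20 members of 43 listed, of which 4 rose, 11 fell (6 under all 3 scalings) and 5 were not called. Across all members 18.5% rose and 38.2% fell. Cd52, a small glycosylphosphatidylinositol-anchored protein, rose by 0.32 (adjusted p = 0.000902). Itgam, the integrin CD11b of mature NK cells, fell by 0.71 (adjusted p = 0.000254), and the tetraspanin Cd37 by 0.58. Cma1, mast cell chymase, which mouse NK cells also transcribe, stood at 699, 847, 623 and 719.9 in monoculture and at 79.9, 109, 133 and 377 in co-culture. It fell (log2 fold change -2.19 ± 0.27, adjusted p = 7.41e-06) on 8 to 26 counts per co-culture, and fresh cells held 2213 ± 455.

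Markers of tissue residency and type 1 innate lymphoid cells (ILC1), close relatives of NK cells, had 8 members of 23 listed. Of these 1 rose, 6 fell (5 under all 3 scalings) and 1 was not called (median -0.88). For all members the share that fell was 38.2%, with a median of -0.24. Itga1 (ENSMUSG00000042284, chromosome 13, 115089632 to 115238500), the integrin CD49a, stood at 1074, 1327, 821 and 1169 in monoculture and at 541, 809.7, 216 and 289.8 in co-culture. Co-culture was lower in each sample (log2 fold change -1.40 ± 0.20, adjusted p = 3.13e-05), and fresh cells were lowest, at 62, 85.6, 62.3 and 59.3. Tnfsf10, Rora, Ikzf3, Cd69 and Ltb, given above, were the other falls. Kit (ENSMUSG00000005672, chromosome 5, 75735576 to 75817382), the receptor of stem cell factor, went against them and stood at 2284, 1528, 1534 and 1642 in monoculture and at 5847, 4216, 4543 and 5086 in co-culture. All co-cultures were above the highest monoculture, female 1 (log2 fold change 1.50 ± 0.15, adjusted p = 3.32e-05), and fresh cells held 3058 ± 658.

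**Figure D4:**
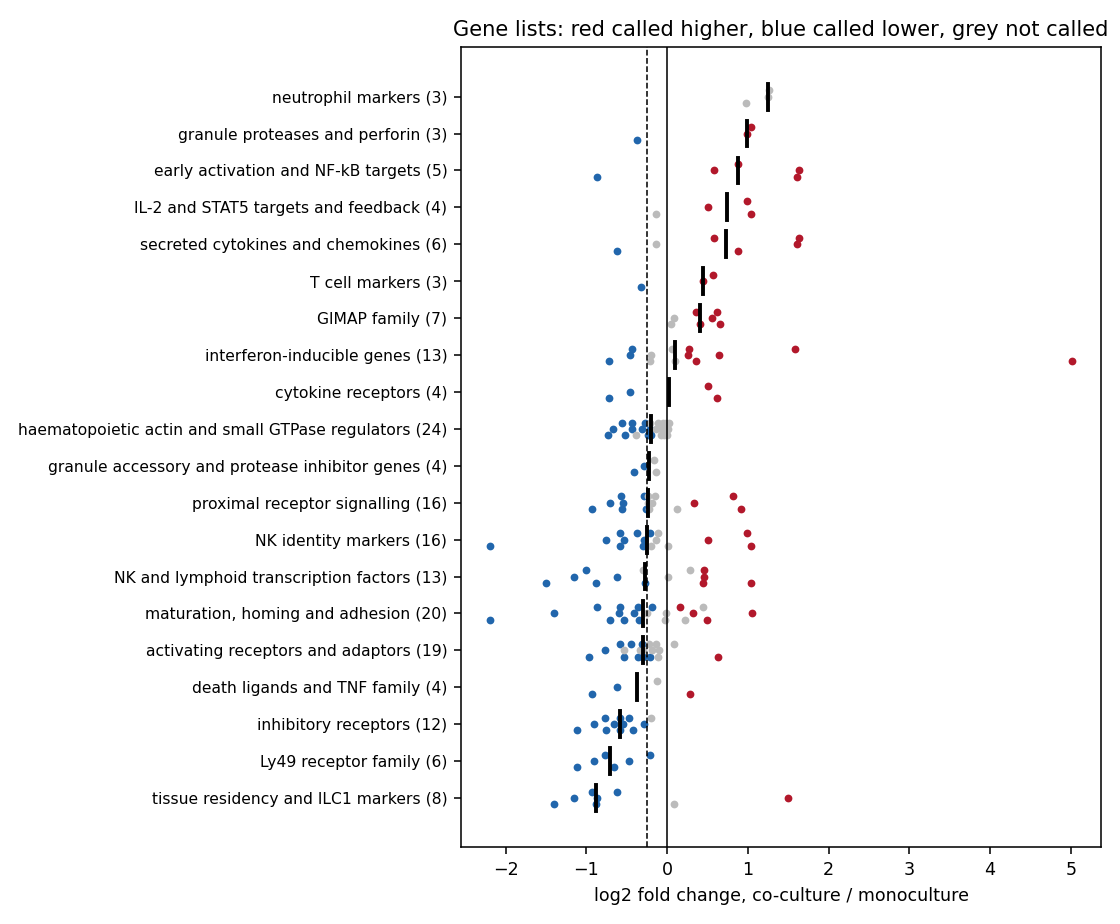
Log2 fold change in co-culture of the members of the 20 gene lists with 3 or more members (number in brackets), with red for called higher, blue for called lower and grey for not called. Black bars mark each list's median and the dashed line the median of all members, -0.24. The medians of inhibitory and Ly49 receptors, lists that share members, lie to its left and that of GIMAP genes to its right.

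The largest falls were in genes outside most of those lists. Cox6a2 (ENSMUSG00000030785, chromosome 7, 127804607 to 127805559), the heart and muscle form of a cytochrome oxidase subunit, had 1135 to 3696 counts in monoculture and 0, 4, 10 and 0 in co-culture. It stood at 1084, 861, 1047 and 995 in monoculture and at 0, 29.2, 166 and 0 in co-culture, and fresh cells held 47.6, 12.5, 10.9 and 21.2. Its log2 fold change was -4.81 ± 0.67 (adjusted p = 0.00139), but moved to -8.62 without the co-culture of female 2 and to -9.77 without that of male 4, so its size rests on single libraries. Klrb1, a lectin of the NK1.1 family, had 5, 16, 0 and 3 counts in co-culture and stood at 479, 541, 471 and 472 in monoculture and at 44.4, 117, 0 and 43.5 in co-culture. Its log2 fold change was -3.48 ± 0.39 (adjusted p = 3.13e-06), but moved to -7.56 without the co-culture of male 5. Abcg1, a cholesterol exporter, stood at 799, 937, 525 and 789.7 in monoculture and at 142, 175, 49.9 and 217 in co-culture (log2 fold change -2.35 ± 0.29, adjusted p = 9.56e-06, and -3.08 without the co-culture of male 5). Smpdl3a, a phosphodiesterase, fell by 1.78 and Prr5l, a partner of the kinase complex mTORC2, by 1.60 on the log2 scale. Prr5l was the most abundant of the 10 largest falls, at 2724, 2909, 2699 and 2835 in monoculture and 825, 1094, 782 and 971 in co-culture. The genes ENSMUSG00000137801 and ENSMUSG00000139834, without a symbol, fell by 3.13 and 2.69. Among the 10 largest rises not yet named were Gm36723 at 1.48 ± 0.19, Serpine2, a serine protease inhibitor, at 1.14 ± 0.22 and ENSMUSG00000121505 at 1.09 ± 0.22. Of the most abundant members, Laptm5, a lysosomal protein of blood cells, rose by 0.17 and Itgal, the integrin chain CD11a, by 0.16; 4 and 3 of the 8 single-library omissions ended these calls.

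Markers of other cell types were present in both conditions. Of 16 listed neutrophil genes 3 were members, and the 10 that were clear of Panc02 by the same ratio summed to 305 to 5044 in monoculture and 1003 to 11941 in co-culture. Both male 5 libraries were high: S100a9, a calcium-binding protein of neutrophils, stood at 101, 278, 267 and 1579 in monoculture and at 257, 511, 1065 and 4159 in co-culture. It was not called (log2 fold change 1.26 ± 0.89, adjusted p = 0.283), nor were Ngp (0.97 ± 0.94) and Ltf (1.25 ± 1.04), but all 3 were called higher with the sample numbers as a block, at 1.36, 1.05 and 1.42 (adjusted p = 1.06e-11, 6.19e-09 and 5.62e-07). Elane and Ctsg were at 0 in co-culture. A 0 in co-culture, here and for the markers below, does not show absence, since 3 counts there equal 21.9 to 49.9 NK-scaled CPM. T cell genes, 3 members of 18 listed, summed to 6892 to 7967 in monoculture and 8695 to 9818 in co-culture over 13 genes. Trbc1, a T cell receptor constant segment that NK cells can also transcribe, rose (log2 fold change 0.57 ± 0.08, adjusted p = 9.56e-06), Lef1 rose by 0.45, a call lost in 5 of the 8 fits that left out 1 library, and Trbc2 fell by 0.33 under the main scaling, a call lost in 3 of those 8. Cd8a, Cd8b1 and Themis were at 0 in co-culture and Cd5 in monoculture. B cell genes summed to 1674 to 2052 in monoculture and 956 to 1544 in co-culture, and their single member of 23 listed, Ighm, fell (log2 fold change -1.24 ± 0.29, adjusted p = 0.00733), with Cr2 and Fcer2a at 0 in co-culture. Myeloid genes summed to 3968 to 5365 in monoculture and 3888 to 5956 in co-culture, with C1qa, C1qb and C1qc at 0 in monoculture and Adgre1 and Marco at 0 in co-culture. Their member Itgax, which NK cells also express, fell by 0.35 under the main scaling. Erythroid genes summed to 1404 to 2643 in monoculture and 1481 to 6074 in co-culture, and neither of their 2 members was called. Of 20 listed NK identity markers 16 were members, which the rule favours. Among the 16, 3 were called higher, 9 lower (6 under all 3 scalings) and 4 not at all. Across all members 18.5% were called higher and 38.2% lower. The part of these other cells in the results above was not tested. With both libraries of male sample 5 left out, chosen after the data were seen, 47 genes rose and 99 fell. Among the calls lost then were those of Ighm (-1.05), Ltb (-0.47), Slamf7 (0.53) and Gimap5 (0.31).

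Of the 181 called genes 180 changed with the same sign in cells of female and male donors. These genes were called on the mean of both sexes, which favours equal signs, so that count is no test of agreement. No gene was called for a difference in response between the sexes by edgeR's interaction test with Benjamini-Hochberg adjustment (0 of 319, 0.0%, smallest adjusted p = 0.637), and 21 had an unadjusted p under 0.05. DESeq2 called 0 too. The block on sample number gave 1, the beta-globin gene Hbb-bs (-1.13), and a fit of the whole table called 2 higher and 5 lower. With 2 libraries per sex the test has a median SE of 0.28 on this difference, and differences well above that size could go uncalled. The whole-table fit adjusted over 21942 genes, which include those of Panc02, while scaling to the total of the 319. On that scale Panc02 genes shift with the NK share, which can lower the adjusted p-values of all genes. Its calls, such as Cma1 at -1.65 and Itga1 at 1.14, therefore do not show differences that the main test missed. Xcl1 rose by 1.80 in female and 1.42 in male cells, Gzmb by 1.12 and 0.85, and Tgtp2 by 5.11 and 4.92 on the log2 scale. Fcer1g changed by -0.98 and -0.95.

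Between the sexes within co-culture 4 of 319 genes (1.25%) were called, and 32 had an unadjusted p under 0.05. Itga1 was higher with female cells, at 541 and 810 against 216 and 290 NK-scaled CPM (log2 difference 1.41 ± 0.32). Cmah, the enzyme that makes the sialic acid Neu5Gc, was lower at 275 and 168 against 499 and 913 (-1.70 ± 0.38). Klrc2 was lower at 1588 and 1576 against 2629 and 2464 (-0.69 ± 0.14), and Klra8 at 5341 and 5719 against 7339 and 7796 (-0.45 ± 0.10). All 4 had an adjusted p of 0.0414 in edgeR's test. Each of these calls was lost in several leave-one-out fits, with adjusted p up to 0.257. In monoculture 1 gene (0.313%) differed: Ccl3 was lower in female cells, at 2463 and 3039 against 4349 and 3933 (-0.59 ± 0.11, adjusted p = 0.0196 by edgeR). It was lost in 4 of the leave-one-out fits, the adjusted p reaching 0.525 without the monoculture of female 1.

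**Figure D5:**
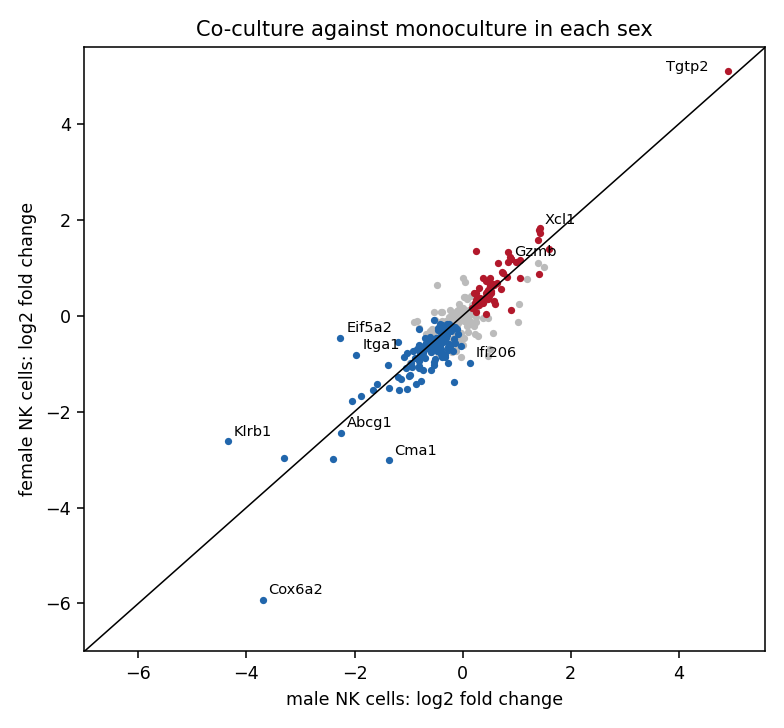
Log2 fold change in co-culture of each of the 319 genes in male (x axis) and female (y axis) NK cells, with red for genes called higher over both sexes, blue for lower and grey for not called; the line marks equal change. Points lie along the line, and Cox6a2 and Klrb1, which had at most 16 counts in any co-culture, lie among the farthest from it.

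Several well-known NK genes could not be read in co-culture because they failed the rule. Ccl5 stood at 1522 times and Irf8 at 1255 times their Panc02 levels, and Eomes, a T-box factor of NK cells, at 47.5 times. Klrg1, a receptor of mature NK cells, averaged 14.3 CPM and Tnf 18.4 CPM in monoculture, under the level threshold. Gzmc was under it as well, at 2.50 CPM. Tigit, an inhibitory receptor, was itself at 203 CPM in Panc02 cells. Cish, Socs1, Il2ra and Itga2 were left out by the same rule.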

How the data were processed

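Gene-level read counts of messenger RNA were analysed for 4 monocultured, 4 co-cultured and 4 fresh NK libraries and 2 Panc02 libraries. The authors deposited raw counts: whole numbers of reads for each gene, without scaling. The submitters' processing notes list HISAT2 2.2.1, featureCounts 2.0.6, cutadapt 4.4 and SAMtools 1.19.2, and name GRCm39 as the build. Counting was by strand over exons of Ensembl genes, per the file headers, with each mate and each multi-mapping read counted, so near-identical paralogs share reads. Between 66.4% and 78.6% of low counts in a library were even.

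Genes were chosen as the report describes. Counts of the 319 genes were fitted with the robust quasi-likelihood test of edgeR 4.0.16 (R 4.3.3) as 4 group means of condition and sex, with the genes' own total as library size (biological coefficient of variation 0.149 on 4 residual degrees of freedom) and Benjamini-Hochberg adjustment over all 319 at 0.05. SE was taken as the absolute log2 fold change over the root of the F statistic. The fit was tested on simulated counts. A gene is said to rise or fall only past that threshold. Alternatives were other scalings (TMM, median-ratio), DESeq2 1.42.0, other thresholds of the rule, filterByExpr, thinning of monocultures, subtraction of Panc02, fits with the fresh libraries, the whole table or no sex term, a block on sample number, and leaving out each library.

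Deviations of same-numbered libraries from their group means correlated across 270 genes. Pearson r was 0.24 in female and 0.50 in male, and Spearman correlation 0.12 and 0.19, each over the 0.1 set for pairing. By that the sample numbers were taken to pair the libraries, though the labels do not say that they do. With 2 libraries per sex each correlation rests on 1 difference per condition, so it cannot show that the samples pair. The main fit, which gave the calls, SEs and adjusted p-values, ignores this pairing. The block on sample number was run as an alternative only. Tumour allografts were not used here. Named genes were, in each direction, the 10 called genes with the largest change and no overlap, up to 4 called members of each list plus called members of the opposite sign, a preset group of NK genes, the highest members, the sex calls and the genes at each threshold. Genes outside this rule were named after their values were seen. Among them were Ngp, S100a9, Ltf, Hbb-bs, Osm, Cst7, Cd27, Klre1, Tyrobp, Clec2i, 4833403J16Rik, Gimap1, Itgam, Pik3r5, Tap1, Serpina3g, Psmb8, Sp140 and the genes with a promoter match. A few genes that this rule names are not reported here. The members and the 23 gene lists were chosen with earlier results of these data known. Set tests were not used: lists are given by counts and medians.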

Additional observations from a re-analysis of the deposited data

Results flagged for a closer look

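In groups of 4 libraries, 15 of 202 groups (101 named genes in monoculture and co-culture) had a highest or lowest value whose gap to the nearest other, divided by the group's range, passed Dixon's 95% critical value. Chance flags about 5% of groups. The share flagged here cannot be set against that rate, because Ngp, S100a9 and Ltf, flagged below, were named after their values were seen. All values are NK-scaled CPM.

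Of these, 5 were neutrophil genes in male 5. Ngp stood at 1973 in its monoculture, against at most 408 in the others, and at 4362 in its co-culture, against at most 832. S100a9 was at 1579 in its monoculture, against at most 278. Ltf was at 892 in its monoculture and 2232 in its co-culture, against at most 160 and 483. The co-culture of male 5 was also lowest for Il1rap (58.0, next 99.8), Gbp5 (898, next 1281) and Trbc2 (1435, next 1810). Its monoculture was lowest for Arhgap9 (4808, next 5150).

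The monoculture of female 1 was highest for Kit (2284, next 1642) and Cd96 (2495, next 2209). That of female 2 was highest for Klrb1 (541, next 479), and the co-culture of female 2 for ENSMUSG00000121505 (1050, next 616). The monoculture of male 4 was highest for Trbc1 (4923, next 4116) and lowest for Prkcq (3193, next 3361). The part of neutrophil RNA in other results was not tested.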

How the results depend on the processing

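The count of genes that rose in co-culture was 47 to 77 under every alternative run, against 59. The count that fell, 122, was 70 with TMM factors, 74 with median-ratio size factors and 195 of 402 genes with a ratio minimum of 500 in the rule, and 93 to 140 otherwise, 102 to 136 when 1 library was left out. The replicate block, sample number as a term, gave 65 higher and 140 lower. It changed no named call other than those of Nkg7, Ngp, S100a9 and Ltf, and called 1 gene lower for the difference between the sexes. For that difference a fit of the whole table called 2 higher and 5 lower. Its adjustment ran over 21942 genes that include those of Panc02, so its sex counts cannot be compared with those of the main fit.

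For female against male in co-culture, 1 gene higher became 2 with TMM factors, DESeq2 or the fresh libraries in the fit, 8 in the whole table, and 0 with median-ratio size factors, a level minimum of 50 or 10 CPM, a ratio minimum of 500 or 10000, genes chosen in fresh cells, thinned monocultures or male sample 5 left out. The 3 lower became 7 with DESeq2, 5 with the fresh libraries, 10 in the whole table, 1 with a minimum of 50 or 10 CPM, and 0 with median-ratio size factors, a ratio minimum of 500 or 10000, thinning or male sample 5 left out. The whole-table counts carry the limit given above for that fit. Leaving out 1 library gave 0 to 5 higher and 0 to 6 lower. For monoculture, whose alternatives were added after the data were seen, 0 higher became 1 with DESeq2. The 1 lower became 2 with TMM factors, 5 with DESeq2 and 0 with thinning, fresh libraries, the whole table or male sample 5 left out. Leaving out 1 library gave 0 to 1 higher and 0 to 3 lower.

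The NK share by the median over genes, in place of the sum, was 3.03% with female and 1.91% with male cells. The sign of genes near 0 turned. Nkg7 was 0.10 with TMM factors and 0.072 with median-ratio factors, Ncr1 0.13 and 0.10, and Klra8 0.022 with TMM factors. Tbx21 was -0.090 with a ratio minimum of 500, -0.025 with genes chosen in fresh cells, -6.86e-05 with thinning, -0.10 without male sample 5, and -0.15 to 0.14 when 1 library was left out. The cause of these moves was not tested, beyond the scale itself: TMM factors move the median gene by 0.24. Depth in co-culture, 60094 to 137081 member counts, limits genes of low level most.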
